A study of Mus musculus with 2 samples.

Results

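Single mouse muscle stem cells kept for 96 h in culture medium of 25 mM glucose, called high glucose cells here, were compared with freshly isolated cells that the labels call quiescent. The cells compared are the wells of the study's plate 1 that the deposited well sheet gives to these conditions and that held at least 500 gene counts and 250 genes. These were 215 cells of 456 in the study, namely 113 high glucose cells and 102 freshly isolated cells, and 1 high glucose well with 8 counts was left out. Both kinds of cell were sorted into wells of the same 384-well plate and copied with a modified CEL-Seq2 protocol, which tags the 3' ends of polyadenylated RNA with a barcode for the well. The medium was DMEM with pyruvate at 1 mM and bFGF at 2.5 ng/ml. It also held fetal bovine serum and horse serum at 10% each and chick embryo extract at 0.05%. The labels give no strain, sex, age or number of the mice and no sort gates. Each condition is a single pool of cells with no replicate, so there was no replicate check, no test was run, and every interval below covers counting error only. Each condition also filled its own 6 plate rows, so condition and plate position cannot be told apart.

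Muscle stem cells rest beneath the basal lamina of the muscle fibre and enter the cell cycle when they are taken from their niche or when the muscle is injured. What such a cell can sense, send and take up is set by its receptors, secreted proteins, transcription factors and transporters, and these 4 classes are described here. Cytokines of the interleukin-6 family signal through gp130 and STAT3, and interleukin-1 and TNF signal through NF-kB. Both routes are known to be active in muscle stem cells after injury.

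High glucose cells held more RNA. The median number of gene counts per cell was 6747 (868 to 18844) in high glucose cells and 2536 (1549 to 6750) in freshly isolated cells, and the pools summed to 887611 and 284109 counts in that order. ERCC spike-ins are synthetic RNAs added to every well, and their counts were alike, with a median of 131 per high glucose cell and 136.5 per freshly isolated cell. Pooled gene counts per spike-in count were therefore 60.2 in high glucose cells and 19.6 in freshly isolated cells, which differ by a factor of 3.07. A level in CPM is the gene's share of the pool's gene counts, scaled to 1000000, and a level per spike-in count follows RNA per well. Values below are in CPM unless given per spike-in count, and many genes are given in CPM only. For every gene the ratio per spike-in count is 3.07 times the ratio in CPM, so a gene level in CPM is higher per spike-in count. A gene had to be at least 6.14-fold lower in CPM in high glucose cells to be at least 2-fold lower per spike-in count. After every cell was thinned to 1000 counts, which left out 1 high glucose cell, the median number of genes detected was 761.5 in high glucose cells and 699 in freshly isolated cells. All 13 muscle stem cell markers on the list were detected in both conditions. Their sum was 2286 CPM (1885 to 2503 over plate rows) in high glucose cells and 6786 CPM (5530.1 to 7976 over plate rows) in freshly isolated cells. The members differed in direction. Myod1 had 705 CPM in high glucose cells and 2446 CPM in freshly isolated cells, Sdc4 436 against 2094 CPM and Cd34 281 against 134 CPM. Per spike-in count these ratios were 0.885, 0.639 and 6.44 in that order. No cell barcode was shared between wells.

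Among 3848 genes with a mean of at least 50 CPM over the pools, 702 (18.2%) were at least 2-fold higher in CPM in high glucose cells, 478 (12.4%) were at least 2-fold lower, and 2668 were neither. Per spike-in count, 3112 (80.9%) were at least 2-fold higher and 107 (2.78%) at least 2-fold lower. The scales differ by the fixed factor of 3.07, so the 107 had to be lower in CPM as well. For the same reason none of the 478 could be at least 2-fold higher per spike-in count. Protein-coding genes were about evenly split in CPM, with 453 higher and 443 lower of 3077. The higher genes also held 222 of 662 processed pseudogenes, whose reads may belong to their parent genes. With TMM scaling factors, which shift every log2 ratio by -0.17, the split was 510 higher and 594 lower. The median log2 ratio over all genes was 0.25 in CPM and 1.87 per spike-in count.

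**Figure D1:**
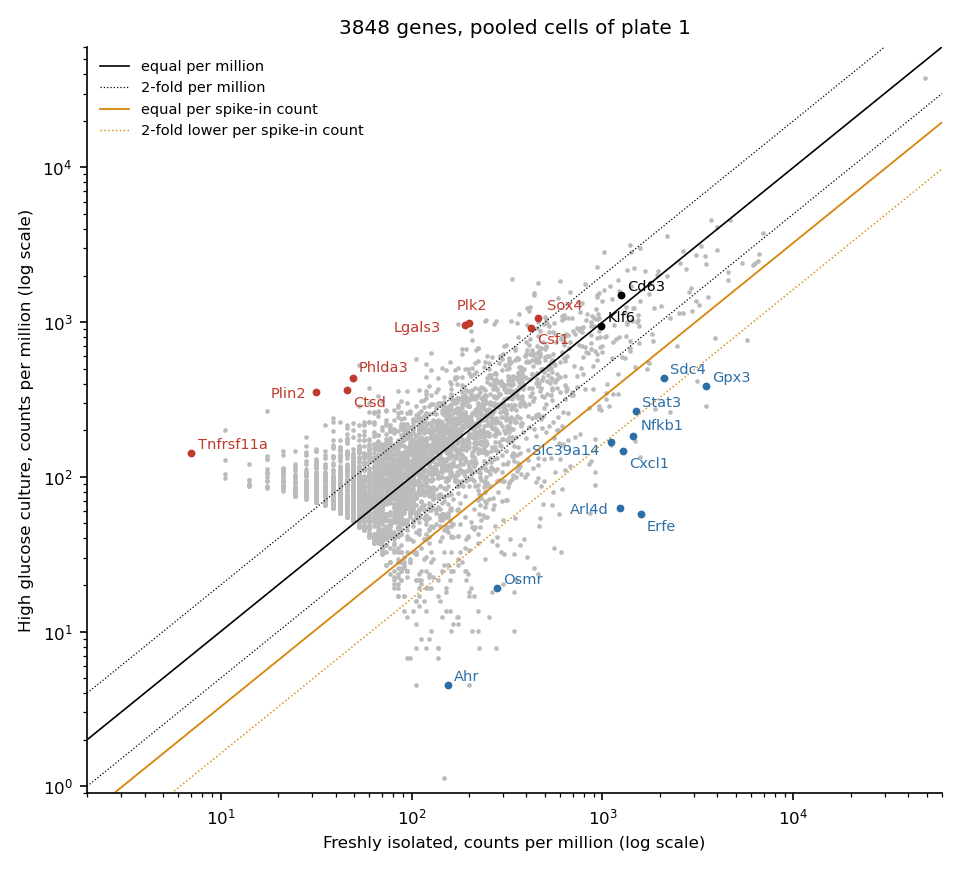
CPM in the high glucose pool (vertical axis) against the freshly isolated pool (horizontal axis) for 3848 genes, both on log scales, with lines for equal levels and 2-fold differences on either scale. Most genes lie above the line of equal level per spike-in count, and 107 genes, among them Erfe, Arl4d, Osmr and Ahr, lie below the orange dotted line.

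In CPM, each of the 4 classes had more members lower than higher in high glucose cells, beside 453 higher and 443 lower of all protein-coding genes. Group counts in CPM below are to be read beside 18.2% higher and 12.4% lower of all genes. Of 70 measured receptors, 31 were lower in CPM, 4 were higher and 35 passed neither bound (median log2 ratio -0.85). Of 74 secreted proteins, 11 were higher, 41 lower and 22 neither (median -1.53). Of 126 transcription factors, 6 were higher, 49 lower and 71 neither (median -0.69). Of 84 transporters, 9 were higher, 20 lower and 55 neither (median -0.13). Per spike-in count, more members were higher than lower in each class, with 32 receptors higher and 10 lower, 29 secreted proteins higher and 24 lower, 61 transcription factors higher and 9 lower, and 55 transporters higher and 7 lower. The share at least 2-fold lower on that scale was 32.4% of secreted proteins, 14.3% of receptors, 8.33% of transporters and 7.14% of transcription factors, beside 2.78% of all genes, and the share at least 2-fold higher was 39.2%, 45.7%, 65.5% and 48.4% in that order, beside 80.9% of all genes. The median log2 ratio per spike-in count was 0.08 for secreted proteins, 0.77 for receptors, 1.49 for transporters and 0.93 for transcription factors, beside 1.87 for all genes.

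**Figure D2:**
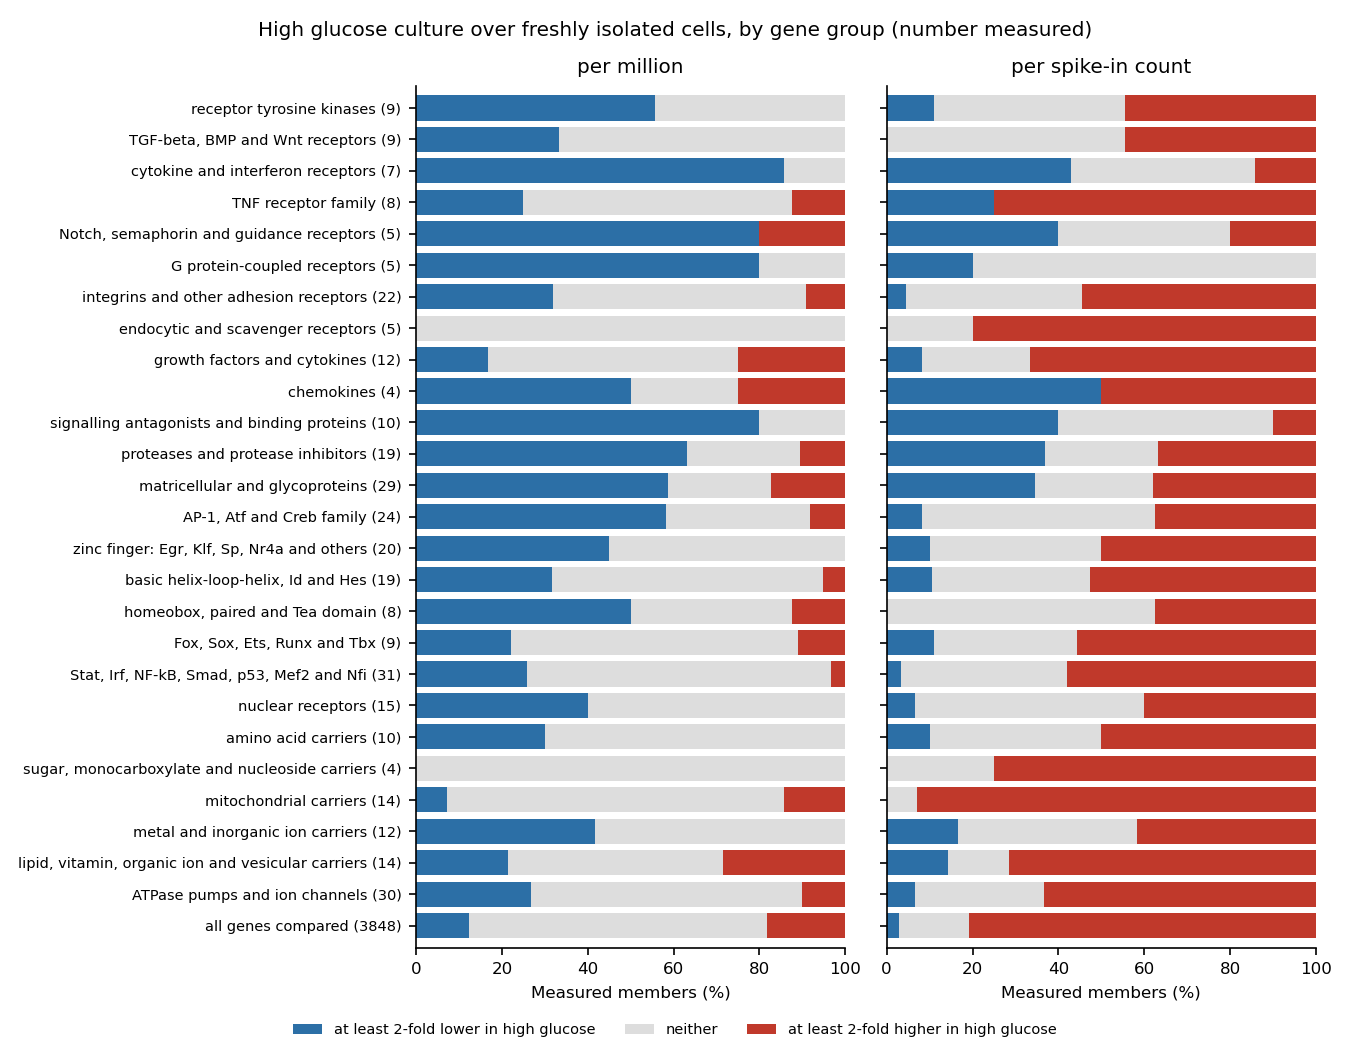
Share of the measured members of each gene group that were at least 2-fold lower (blue), neither (grey) or at least 2-fold higher (red) in high glucose cells than in freshly isolated cells, in CPM on the left and per spike-in count on the right. Cytokine receptors, guidance receptors, G protein-coupled receptors and signalling antagonists have at least 80% of members lower in CPM, against 12.4% of all genes in the lowest bar.

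Receptors for cytokines were the receptor group with the lowest median in CPM, -2.30 on the log2 scale. Of 7 measured members, 6 were lower in high glucose cells and 1 was neither. Osmr, the receptor chain for oncostatin M, had 19.2 CPM in high glucose cells and 282 CPM in freshly isolated cells. The lowest, median and highest of the 6 plate rows were 11.7, 18.0 and 28.3 CPM in high glucose cells and 158, 284 and 428 CPM in freshly isolated cells. These row ranges did not overlap, and the ratio was 0.0680 (95% interval 0.0378 to 0.116) in CPM and 0.209 (0.116 to 0.355) per spike-in count. No other cell type was sampled that could give a background share, so shares near 0 are not read as expression. At equal depth, 2.68% of high glucose cells and 21.6% of freshly isolated cells had an Osmr count, and the shares were 13.3% and 48.0% before thinning.

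Other cytokine receptors were chosen after their values were seen. Il1r1, the signalling receptor of interleukin-1, had 10.1 CPM in high glucose cells and 127 CPM in freshly isolated cells, a ratio of 0.0800 (0.0339 to 0.169), and was also lower per spike-in count (0.246, 0.104 to 0.519). Il11ra1, the interleukin-11 receptor, had 21.4 against 106 CPM, and Il4ra had 19.2 against 84.5 CPM. Their intervals per spike-in count reached 1. Il17ra, the group's member with the most counts, was lower in CPM (ratio 0.305, 0.223 to 0.417) and close to equal per spike-in count (0.937, 0.685 to 1.28). After thinning its ratio was 0.546 in CPM, no longer 2-fold lower. Ifngr2, an interferon gamma receptor chain, differed little in CPM, with 54.1 CPM in high glucose cells and 49.3 CPM in freshly isolated cells. Il6st, which encodes gp130, lay under the minimum, at 20.3 CPM in high glucose cells and 28.2 CPM in freshly isolated cells.

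The TNF receptor family was divided, with 1 of 8 members higher, 2 lower and 5 neither in CPM. Tnfrsf1a, the main receptor of TNF, had 29.3 CPM in high glucose cells and 243 CPM in freshly isolated cells, a ratio of 0.121 (0.0737 to 0.192) in CPM and 0.370 (0.226 to 0.589) per spike-in count. Fas, a death receptor, had 9.01 against 123 CPM (ratio 0.0732, 0.0293 to 0.161). Tnfrsf11a, which encodes RANK, the receptor of the bone cytokine RANKL, was the opposite case. It had 127 counts in the high glucose pool and 2 in the freshly isolated pool, or 143 and 7.04 CPM, a ratio of 20.3 (5.51 to 169.7). Its rows spanned 101 to 249.9 CPM in high glucose cells and 0 to 23.0 CPM in freshly isolated cells. After thinning, 12 of 112 high glucose cells (10.7%) and 0 of 102 freshly isolated cells had a count, and 3 counts of the total, taken as the limit that 0 allows, put the share of freshly isolated cells with a count at up to 2.94% (exact binomial upper limit 3.55%). Before thinning the shares were 47.8% and 1.96%. Tnfrsf12a, the TWEAK receptor, did not differ beyond 2-fold in CPM, with 679 CPM in high glucose cells and 669 CPM in freshly isolated cells (ratio 1.02, 0.862 to 1.20).

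Growth factor receptors kept a wider range. Of 9 receptor tyrosine kinases, 5 were lower and 4 were neither in CPM. Ror1, a Wnt5a receptor, had 11.3 CPM in high glucose cells and 176 CPM in freshly isolated cells (ratio 0.0640, 0.0289 to 0.128) and was lower per spike-in count (0.196, 0.0888 to 0.392). Fgfr4, a receptor of the FGF family, had 27.0 against 155 CPM, but its row ranges overlapped, with 0 to 40.9 CPM in high glucose cells and 0 to 228 CPM in freshly isolated cells. After thinning its ratio was 0.643, so the 2-fold difference was lost, and 10.7% of high glucose cells and 15.7% of freshly isolated cells had a count. Axl, the receptor of the survival factor Gas6, was nearly level in CPM, at 385 CPM in high glucose cells and 380.1 CPM in freshly isolated cells (ratio 1.01, 0.814 to 1.27), and so was 3.11-fold (2.50 to 3.90) higher per spike-in count. Among 9 receptors for TGF-beta, BMP and Wnt ligands, 3 were lower and 6 neither in CPM, and none was 2-fold lower per spike-in count. The lower ones included Tgfbr3, the co-receptor betaglycan, with 55.2 against 249.9 CPM, and Gas1, a hedgehog co-receptor, with 19.2 against 109 CPM.

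Of 5 guidance and Notch-type receptors, 4 were lower and 1 was higher. Tenm4, a teneurin of the cell surface, had 6.76 CPM in high glucose cells and 98.6 CPM in freshly isolated cells (ratio 0.0686, 0.0232 to 0.169). Plxna1, a semaphorin receptor, went the other way, with 105 CPM in high glucose cells and 21.1 CPM in freshly isolated cells (ratio 4.96, 2.20 to 13.9) and rows of 84.6 to 160.3 against 0 to 34.2 CPM. Of 5 G protein-coupled receptors, 4 were lower in CPM. F2r, the thrombin receptor, had 269 against 982 CPM (ratio 0.274, 0.230 to 0.327), and S1pr3, a receptor of sphingosine-1-phosphate, had 7.89 against 106 CPM (0.0747, 0.0277 to 0.174). Per spike-in count F2r was at 0.841 (0.705 to 1.00) and S1pr3 at 0.229 (0.0850 to 0.532).

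Adhesion receptors were mixed, with 2 of 22 higher, 7 lower and 13 neither in CPM. Sdc4, a heparan sulphate proteoglycan that binds growth factors, was lower in CPM but not 2-fold lower per spike-in count (0.639, 0.561 to 0.727). It was found in 31.2% of high glucose cells and 85.3% of freshly isolated cells after thinning, and in 82.3% and 94.1% before. Bsg, or basigin, which carries monocarboxylate transporters to the membrane, had 367 CPM in high glucose cells and 162 CPM in freshly isolated cells (ratio 2.27, 1.66 to 3.16, and 1.98 with median-of-ratios factors). Cd63, a tetraspanin of late endosomes, differed by less than 2-fold, with 1497 against 1246 CPM. None of the 5 endocytic receptors passed 2-fold in CPM in either direction, and their median log2 ratio was 0.36. Tfrc, the transferrin receptor, named after its values were seen, had 269 CPM in high glucose cells and 144 CPM in freshly isolated cells (ratio 1.87, 1.34 to 2.67).

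Of 12 secreted growth factors and cytokines, 3 were higher (25%), 2 lower (16.7%) and 7 neither in CPM, near the 18.2% and 12.4% of all genes. Erfe, or erythroferrone, a hormone known from red cell precursors that suppresses hepcidin in the liver, had the lowest ratio in the group. Its rows held 37.7, 45.1 and 105 CPM in high glucose cells and 1130, 1416 and 2323 CPM in freshly isolated cells, as the lowest, median and highest of 6. The ratio was 0.0363 (0.0266 to 0.0485) in CPM and 0.111 (0.0816 to 0.149) per spike-in count, and the row ranges lay far apart. After thinning, 8.04% of high glucose cells and 58.8% of freshly isolated cells had an Erfe count, against 35.4% and 73.5% before. Bmp4, a bone morphogenetic protein, had 40.6 against 144 CPM and was close to equal per spike-in count (0.862, 0.535 to 1.38). Mif, a macrophage-regulating cytokine, was higher, with 154 CPM in high glucose cells and 38.7 CPM in freshly isolated cells (ratio 3.99, 2.16 to 8.17). Gdf15, a stress-related hormone of the TGF-beta family that was named after its values were seen, had 92.4 against 28.2 CPM (ratio 3.28, 1.59 to 7.85), with overlapping rows.

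Csf1, the growth factor of macrophages, was 2.18-fold (1.80 to 2.67) higher in CPM in high glucose cells, at 923 against 422 CPM. Its rows ran from 434 to 1241 CPM in high glucose cells and from 238 to 556 CPM in freshly isolated cells, so the ranges overlapped. The share of cells with a count after thinning was 43.8% (34.4 to 53.4) in high glucose cells and 37.3% (27.9 to 47.4) in freshly isolated cells, with overlapping intervals, and 1 high glucose cell held 66 counts. With equal weight per cell the ratio was 1.76, below 2-fold. The chemokine Ccl2, which attracts monocytes and was named after its values were seen, had 324 against 176 CPM, but its median high glucose row held 140.4 CPM and the highest 1358 CPM, and 1 high glucose cell held 153 counts. After thinning, 16.1% of high glucose cells and 18.6% of freshly isolated cells had a Ccl2 count.

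Of 4 measured chemokines, 1 was higher, 2 were lower and 1 was neither in CPM. Cxcl1, a chemokine that attracts neutrophils, had plate rows of 56.6, 129 and 283 CPM in high glucose cells and 461, 1600 and 1742 CPM in freshly isolated cells, as lowest, median and highest, without overlap. The ratio was 0.114 (0.0926 to 0.140) in CPM and 0.350 (0.284 to 0.428) per spike-in count. Cxcl2, its neighbour and relative, had 18.0 CPM in high glucose cells and 264 CPM in freshly isolated cells (ratio 0.0683, 0.0371 to 0.118). A single freshly isolated row held 1278 CPM of Cxcl2 while the median row held 149 CPM, and without that row the log2 ratio was -2.70 in place of -3.87 in CPM and -1.13 in place of -2.25 per spike-in count. Cxcl12, which retains stem cells through Cxcr4, had 114 against 56.3 CPM (ratio 2.02, 1.19 to 3.67). It was below 2-fold with TMM scaling factors (1.80) and when plate row A, C, F or K was left out (1.80 to 1.99).

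**Figure D3:**
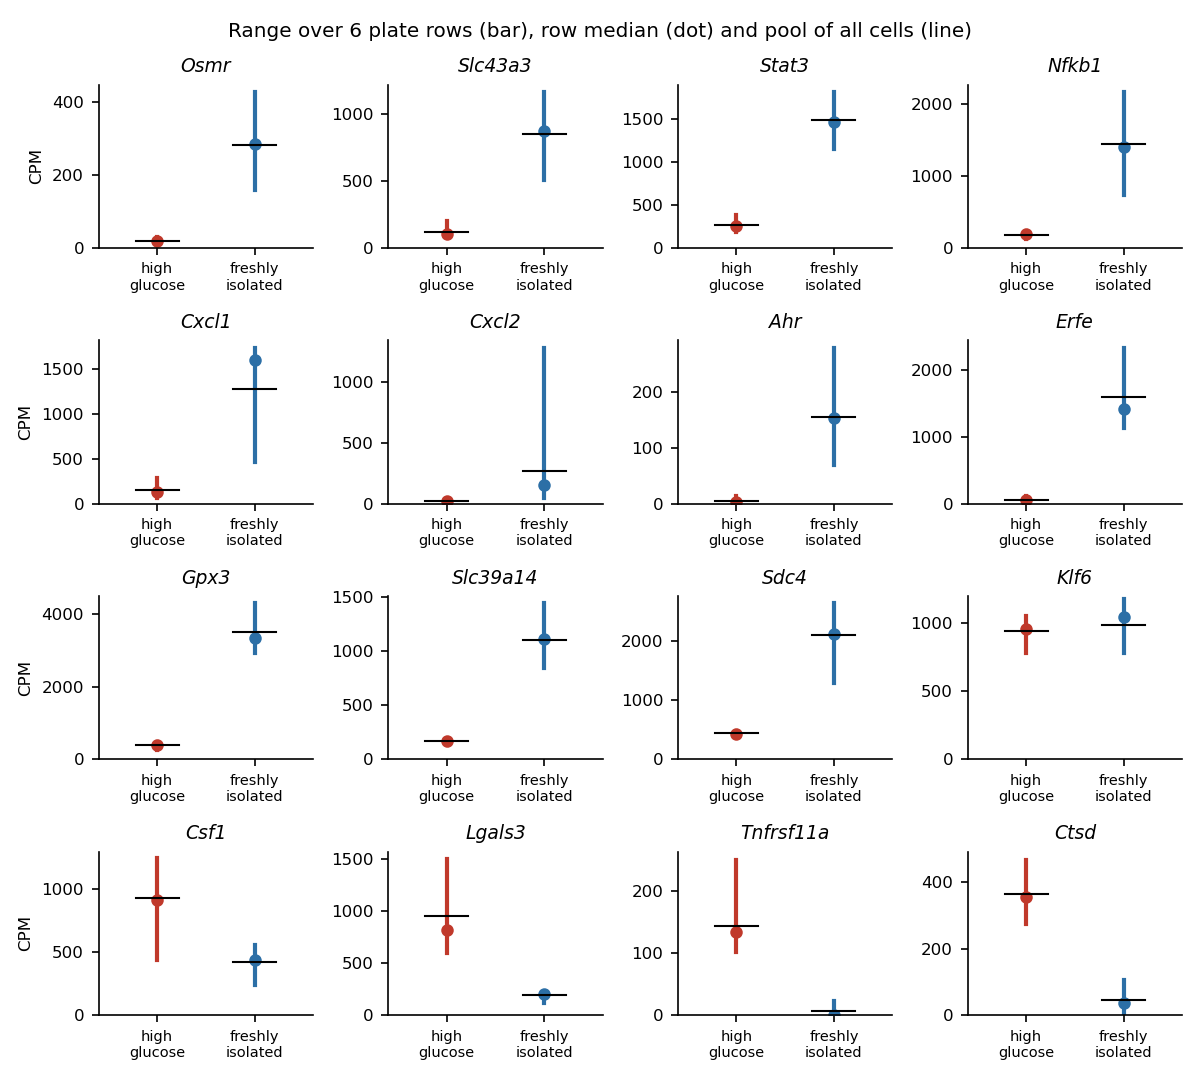
CPM in high glucose cells (red, left) and freshly isolated cells (blue, right) for 16 genes, where bars span the lowest to highest of 6 plate rows, dots are row medians and black lines the pools. Rows of Osmr, Slc43a3, Stat3, Nfkb1, Cxcl1, Cxcl2, Ahr, Erfe, Gpx3, Slc39a14 and Sdc4 lie lower in high glucose cells without overlap, Klf6 and Csf1 overlap, and Lgals3, Tnfrsf11a and Ctsd lie higher.

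The promoters of Cxcl1 and Cxcl2 are shown because both chemokines were low in high glucose cells and NF-kB is their best known regulator. The sequences are from RefSeq, build GRCm38.p6, plus strand, and each gives the 160 bases before the annotated start, at chr5:90891085-90891244 for Cxcl1 and chr5:90903739-90903898 for Cxcl2. Capitals mark a run of 11 bases that matches the NF-kB consensus, which ends 60 bases before the Cxcl1 start and 86 bases before the Cxcl2 start in RefSeq. In GENCODE M21 the Cxcl1 gene starts at chr5:90891241 and the Cxcl2 gene at chr5:90903871. The last bases of both stretches thus lie inside the gene in that annotation. The search counted 2 matches in the 250 bases of each promoter, and the bases shown hold 1 run. Overlapping matches on either strand were counted separately, so 2 matches need not be 2 sites.
Cxcl1: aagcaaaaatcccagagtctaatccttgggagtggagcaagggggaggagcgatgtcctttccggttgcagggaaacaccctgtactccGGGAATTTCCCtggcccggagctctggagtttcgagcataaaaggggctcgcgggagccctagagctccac
Cxcl2: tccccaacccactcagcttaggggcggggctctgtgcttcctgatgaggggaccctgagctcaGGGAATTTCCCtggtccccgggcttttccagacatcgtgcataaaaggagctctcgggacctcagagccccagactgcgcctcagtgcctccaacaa
The 11 capital letters are identical in both. Searched on both strands in the 250 bases before any annotated start, the NF-kB consensus was found for 18 of 78 genes that were at least 2-fold lower per spike-in count and had a promoter in the table (23.1%). The share was 56 of 343 (16.3%) for genes lower in CPM, 39 of 359 (10.9%) for genes higher in CPM, 270 of 2464 for all genes compared and 8.23% for all 27025 genes of the table. Besides the chemokines, the 18 held Igfbp5 and Fosb, which the rule named. The others were Adamts9, Adarb1, Flnc, Gfpt2, Hmcn2, Hspa1a, Hspa1b, Il1r1, Pde4b, Pdzd2, Pxdc1, Tcp11l2, Thbs2 and Vcl. The AP-1 site TGANTCA was found for 10 of the 78 (12.8%), the STAT site TTCNNNGAA also for 10 (12.8%), and for 5.19% and 6.09% of all genes compared in that order. Other motifs also had higher shares in the 78, with the TATA box TATAAA at 15.4%, against 7.79% of all genes compared, and the heat shock element core GAANNTTC at 11.5%, against 6.94%. The CCAAT box was found for 30.8% of the 78 and 37.9% of all genes compared, and the cAMP response element for 5.13% and 3.94%. A match is a description of letters and does not show that a factor binds there.

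Signalling antagonists and binding proteins had 8 of 10 members lower and none higher in CPM. Igfbp5, which binds insulin-like growth factors, was lower on both scales, with a ratio of 0.181 (0.111 to 0.283) per spike-in count. Nbl1, a BMP antagonist, was the member with the most counts and differed little in CPM, with 163 CPM in high glucose cells and 148 CPM in freshly isolated cells. Of 19 proteases and protease inhibitors, 12 were lower, 2 were higher and 5 were neither. Adamts4, a protease that cuts aggrecan and versican, had 12.4 against 172 CPM (ratio 0.0719, 0.0337 to 0.140). Htra3, a serine protease of the matrix, had 18.0 against 201 CPM (0.0898, 0.0482 to 0.159). Both were at least 2-fold lower per spike-in count.

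Matricellular proteins and glycoproteins had 17 of 29 members lower, 5 higher and 7 neither in CPM. Gpx3, a secreted glutathione peroxidase, had rows of 242, 391 and 481 CPM in high glucose cells and 2928, 3328 and 4291 CPM in freshly isolated cells, as lowest, median and highest. The rows did not overlap, and the ratio was 0.110 (0.0974 to 0.125) in CPM and 0.339 (0.299 to 0.384) per spike-in count. A Gpx3 count was present in 37.5% of high glucose cells and 93.1% of freshly isolated cells after thinning, and in 87.6% and all of them before. Bgn, a small matrix proteoglycan that carries dermatan sulphate chains, had 6.76 against 137 CPM (0.0492, 0.0170 to 0.117) and was also at least 2-fold lower per spike-in count.

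Among the 5 higher matricellular proteins and glycoproteins, Lgals3, a galectin that binds galactose-bearing glycans and damaged lysosomes, had rows of 592, 817 and 1499 CPM in high glucose cells and 111, 199.9 and 215 CPM in freshly isolated cells. The ratio was 5.01 (3.81 to 6.73) in CPM and 15.4 (11.7 to 20.7) per spike-in count, and the rows did not overlap. After thinning, 40.2% of high glucose cells and 18.6% of freshly isolated cells had a count. Lgals1, another galectin, had 339 against 127 CPM (ratio 2.68, 1.89 to 3.89), but its ratio was 1.75 after thinning, below 2-fold. Spp1, or osteopontin, had 106 against 31.7 CPM, and Gpnmb, a glycoprotein of lysosomes and the cell surface, had 142 against 49.3 CPM. Both had overlapping rows and were named after their values were seen.

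Several secreted genes that were low in high glucose cells are also expressed by fibroblasts of muscle. Of 11 markers of fibro-adipogenic progenitors, 4 could be analysed here (Dpt, Col3a1, Col1a1 and Ly6a). All 4 had counts in both pools, and they summed to 141 CPM (105 to 198 over rows) in high glucose cells and 1126 CPM (622 to 1541) in freshly isolated cells. Dpt, a matrix protein, had 4.51 against 201 CPM, and the other 7 markers were not analysed here. Smooth muscle and pericyte markers, with counts for 7 of 10 in each pool, summed to 231 CPM (152 to 293) in high glucose cells and 637 CPM (317 to 1103) in freshly isolated cells. In 24 wells, 9 high glucose and 15 freshly isolated, at least 3 markers of the same other cell type were present. For fibro-adipogenic progenitors, 1 high glucose and 5 freshly isolated wells met this bound. Dpt alone had a count in 3.54% of high glucose and 38.2% of freshly isolated cells, so most cells with Dpt stayed in. Without the 24 wells 41 secreted proteins were lower and 11 higher in CPM, the same numbers as with them. For receptors, 30 were lower and 5 higher. These counts cannot show whether cells of another type contributed, which was not tested.

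In the group of 31 Stat, Irf, NF-kB, Smad and related factors, 8 were lower, 1 was higher and 22 were neither in CPM, and 1 was at least 2-fold lower per spike-in count. Stat3, which carries the signal of interleukin-6 family cytokines, had rows of 183, 256 and 387 CPM in high glucose cells and 1151, 1470 and 1821 CPM in freshly isolated cells. The row ranges lay apart, and the ratio was 0.177 (0.151 to 0.209) in CPM and 0.544 (0.462 to 0.640) per spike-in count. Socs3, a target and inhibitor of STAT3 signalling, had 33.8 against 201 CPM, with overlapping rows. Nfkb1, the gene of the p105 and p50 NF-kB subunit, had rows of 125, 189 and 228 CPM in high glucose cells and 737, 1405 and 2165 CPM in freshly isolated cells. Its ratio was 0.128 (0.106 to 0.153) in CPM and 0.391 (0.324 to 0.470) per spike-in count. At equal depth, Stat3 was found in 33.9% of high glucose cells and 74.5% of freshly isolated cells, and Nfkb1 in 14.3% and 66.7%, while the shares before thinning were 82.3% and 98.0% for Stat3 and 70.8% and 82.4% for Nfkb1.

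Rela, the p65 subunit, had 116 CPM in high glucose cells and 201 CPM in freshly isolated cells (ratio 0.578, 0.415 to 0.814). Nfkbia, the inhibitor IkB-alpha, had 302 against 387 CPM (0.780, 0.622 to 0.983). Cebpb, a factor of the acute phase response, had 498 against 1714 CPM and was near equal per spike-in count (0.891, 0.782 to 1.02). Nfkbiz, an atypical inhibitor of the same family, had 32.7 against 148 CPM. These 4 genes and Socs3 were named after their values were seen.

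**Figure D4:**
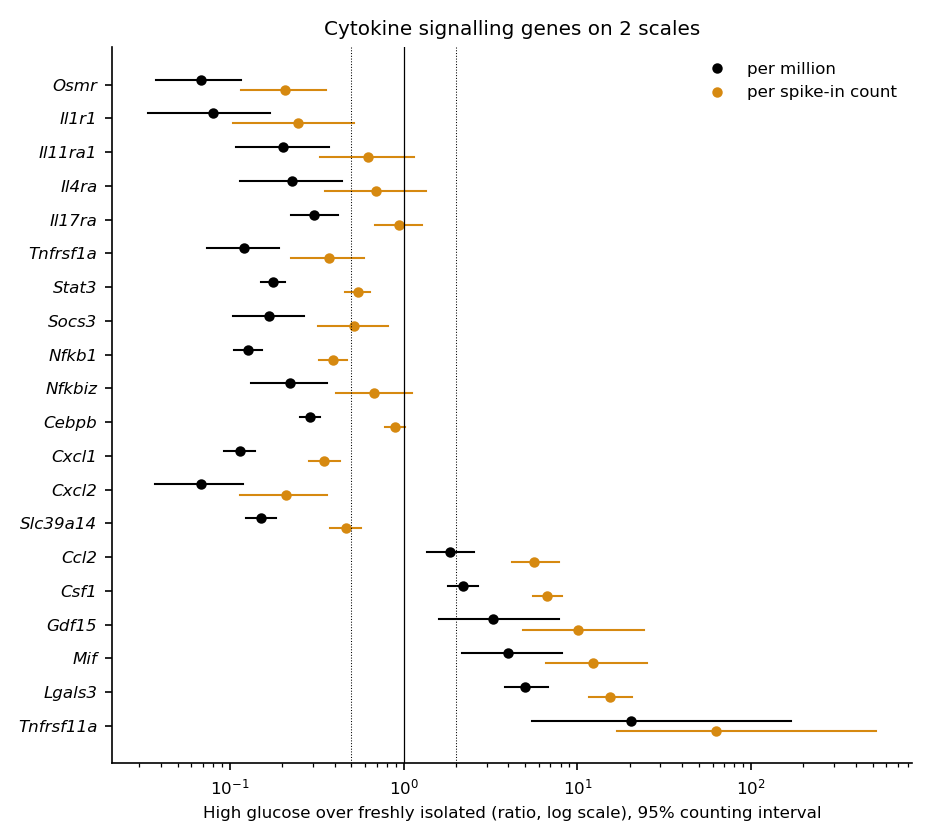
Ratio of high glucose to freshly isolated cells for 20 genes of cytokine signalling, in CPM (black) and per spike-in count (orange), on a log axis with 95% counting intervals and dotted lines at 2-fold. Osmr, Il1r1, Tnfrsf1a, Nfkb1, Cxcl1, Cxcl2 and Slc39a14 lie below 0.5 on both scales, and Csf1, Gdf15, Mif, Lgals3 and Tnfrsf11a lie above 2 on both.

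Ahr, the receptor and transcription factor for aryl hydrocarbons and tryptophan metabolites, stood lowest among the transcription factors. It had 4 counts in the high glucose pool and 44 in the freshly isolated pool, or 4.51 and 155 CPM, with rows of 0 to 12.7 CPM and 69.1 to 278 CPM. The ratio was 0.0291 (0.00759 to 0.0799) in CPM and 0.0893 (0.0233 to 0.245) per spike-in count. Sox11, a developmental factor, had 11.3 against 165 CPM (ratio 0.0681, 0.0307 to 0.137), whereas Sox4, its relative of the SoxC group, had 1057 against 461 CPM (2.29, 1.91 to 2.77), and the row ranges of Sox4 did not overlap. The Sox4 ratio was 1.92 after thinning and just under 2 with median-of-ratios factors, below 2-fold in both. Runx1, a factor of blood and muscle progenitors, had 273 against 957 CPM and was near equal per spike-in count (0.874, 0.732 to 1.04).

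AP-1, Atf and Creb factors had 14 of 24 members lower, 2 higher and 8 neither in CPM. Per spike-in count, 2 were lower, 9 higher and 13 neither. Fosb was lower on both scales (0.120, 0.0870 to 0.163 in CPM and 0.367 per spike-in count). Ddit3, or CHOP, a factor of the endoplasmic reticulum stress response, was higher, with 105 CPM in high glucose cells and 28.2 CPM in freshly isolated cells (ratio 3.72, 1.81 to 8.87), and its rows overlapped. Atf4, which induces Ddit3, differed little in CPM, with 1531 against 1753 CPM. Among 20 zinc finger factors, 9 were lower and 11 were neither. Zfp36, listed there for its zinc fingers although it destabilises cytokine mRNA rather than binding DNA, had 107 against 912 CPM (0.117, 0.0918 to 0.149). Klf6, a Kruppel-like factor, was level in CPM, with 944 against 986 CPM (0.958, 0.836 to 1.10), and was found in 58.9% of high glucose cells and 61.8% of freshly isolated cells after thinning.

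In the homeobox, paired and Tea domain group 4 of 8 members were lower, 1 was higher and 3 were neither in CPM. The coactivators of the Hippo pathway, Yap1 and Wwtr1, had 90.1 and 149 CPM in high glucose cells and 243 and 408 CPM in freshly isolated cells. Both were near equal per spike-in count, at 1.14 (0.815 to 1.59) and 1.12 (0.864 to 1.45). Vgll3, another cofactor of the same Tead factors, was higher, at 354 against 134 CPM (ratio 2.64, 1.89 to 3.81) with rows of 311 to 411 CPM and 19.5 to 205 CPM. It was found in 30.4% of high glucose cells and 10.8% of freshly isolated cells at equal depth. Of 15 nuclear receptors, 6 were lower and 9 neither. Nr4a3 had 37.2 against 222 CPM, and the clock gene Nr1d1 was level in CPM, with 367 against 384 CPM (0.957, 0.768 to 1.20).

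Metal and inorganic ion carriers had 5 of 12 members lower and 7 neither. Slc39a14, a carrier of zinc, manganese and iron known as ZIP14, had rows of 132, 172 and 190.0 CPM in high glucose cells and 839, 1116 and 1443 CPM in freshly isolated cells, without overlap. The ratio was 0.151 (0.123 to 0.184) in CPM and 0.463 (0.378 to 0.565) per spike-in count, and 14.3% of high glucose cells and 61.8% of freshly isolated cells had a count after thinning. Slc41a1, a magnesium carrier, had 54.1 against 348 CPM (0.155, 0.108 to 0.221). Among 10 amino acid carriers, 3 were lower and 7 neither. Slc43a3, grouped there by its family although it carries purine bases, had 122 against 852 CPM (0.143, 0.113 to 0.180), and Slc38a2, a carrier of small neutral amino acids, had 1027 against 1538 CPM (0.668, 0.595 to 0.750).

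None of the 4 sugar, monocarboxylate and nucleoside carriers with at least 50 CPM passed 2-fold in CPM. Of 14 mitochondrial carriers and channels, 2 were higher (14.3%), 1 lower (7.14%) and 11 neither in CPM, beside 18.2% and 12.4% of all genes. Per spike-in count 13 were at least 2-fold higher, as were 80.9% of all genes. Vdac3, a pore of the outer mitochondrial membrane, had 151 against 42.2 CPM (ratio 3.57, 1.98 to 7.09), and Slc25a5, an ADP/ATP carrier, had 430.4 against 454 CPM (0.948, 0.774 to 1.17). Among 30 pumps and channels, 3 were higher, 8 lower and 19 neither. P2rx7, an ATP-gated channel, had 84.5 CPM in high glucose cells and 24.6 CPM in freshly isolated cells (3.43, 1.59 to 8.82). Clic4, a chloride channel-like protein, had 175 against 919 CPM (0.190, 0.155 to 0.233). Of 14 lipid and vesicular carriers, 4 were higher, 3 lower and 7 neither, with Slc10a6, a carrier of sulphated steroids, at 16.9 against 211 CPM (0.0800, 0.0422 to 0.143).

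Several of the higher genes work in the lysosome. Ctsd, the aspartic protease cathepsin D, had rows of 275, 356 and 469 CPM in high glucose cells and 0, 37.2 and 105 CPM in freshly isolated cells. The rows did not overlap, and the ratio was 7.98 (4.60 to 15.1) in CPM and 24.5 (14.1 to 46.5) per spike-in count. Ctsa, or cathepsin A, had 164 against 45.8 CPM (3.59, 2.04 to 6.91), and Mfsd1, a transporter of the lysosomal membrane, had 180.3 against 49.3 CPM (3.66, 2.12 to 6.84). Slc48a1, a heme carrier of endosomes and lysosomes, had 110.4 against 38.7 CPM, with overlapping rows. Other lysosomal genes were closer to level. Ctsb differed by less than 2-fold (438 against 377 CPM). Of 10 measured subunits of the lysosomal proton pump, counted after their values were seen, 2 were higher and none was lower in CPM. Over all genes 18.2% were higher and 12.4% lower. The subunits had ratios from 0.885 to 2.72. Atp6v1g1 had the highest of these, at 115 against 42.2 CPM.

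The extended E-box TCACGTGA is the core of the element that the lysosomal regulators TFEB and TFE3 bind, and it was present before the start of 15 of 359 genes higher in CPM (4.18%). It was found for 1.17% of genes lower in CPM, 2.72% of all genes compared and 0.907% of all genes in the table. The stretch around it is shown for 4 genes named by the rule, because 3 of them encode the lysosomal proteins above and Bax is the cell death effector. The rest of the 15, not shown, were 4933434E20Rik, Dpp7, Ktn1, Polr3c, Prelid1, Prkcsh, Retreg2, Sgta, Snrpa, Vps33a and Zfp292. The 4 shown do not stand for all 15. Each line gives 28 bases read along the gene's strand in GRCm38.p6 from RefSeq with the E-box in capitals, at chr7:142387909-142387936 (minus strand) for Ctsd, chr2:164833745-164833772 (plus) for the second annotated start of Ctsa, chr3:67582687-67582714 (plus) for Mfsd1 and chr7:45466899-45466926 (minus) for Bax.
Ctsd: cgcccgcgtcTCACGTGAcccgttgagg
Ctsa: acaatgagcaaactgTCACGTGAtgcag
Mfsd1: gagcaaccgtTCACGTGAgcacggagag
Bax: tgcagcgagcgatgatgaTCACGTGAct
The E-box ended 91 bases before the RefSeq start for Ctsd, 5 for Ctsa, 63 for Mfsd1 and 2 for Bax, and Mfsd1 held 3 matches in 250 bases. In GENCODE M21 the Ctsd gene starts at chr7:142388038 (minus strand) and the Ctsa gene at chr2:164832873. The stretches shown for Ctsd and Ctsa thus lie inside the gene in that annotation. The shorter core CACGTG, which overlaps it, was found for 14.5% of higher genes, 10.5% of lower genes and 12.1% of all genes compared.

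Over all protein-coding genes, those with the firmest ratios fell outside the 4 classes in part. Phlda3, a p53 target that restrains Akt, had 433 CPM in high glucose cells and 49.3 CPM in freshly isolated cells (ratio 8.78, 5.17 to 16.2). Plin2, the coat protein of lipid droplets, had 353 against 31.7 CPM (11.1, 5.79 to 24.6). Plk2, a polo-like kinase, had 993 against 201 CPM (4.95, 3.78 to 6.59), and Bax had 217 against 35.2 CPM (6.18, 3.29 to 13.1). None of these 4 genes had overlapping rows. Trp53 itself was less than 2-fold apart, with 842 against 644 CPM (1.31, 1.11 to 1.54). At the other end, Lsp1, an actin-binding protein, had 1 count in the high glucose pool and 42 in the freshly isolated pool (ratio 0.00762, 0.000189 to 0.0448). Prkab2, a regulatory subunit of the energy sensor AMPK, had 7.89 against 225 CPM (0.0350, 0.0135 to 0.0764), and it was detected in 0 of 112 thinned high glucose cells, which allows a share of cells with a count of up to 2.68% by the same limit (exact binomial upper limit 3.24%), and in 23.5% of freshly isolated cells. Before thinning, 6.19% of high glucose cells and 44.1% of freshly isolated cells had a Prkab2 count. Arl4d, a small GTPase, had 63.1 against 1232 CPM (0.0512, 0.0379 to 0.0681), Chodl, a membrane lectin, had 23.7 against 461 CPM (0.0513, 0.0307 to 0.0817), and Pdlim4, an actin-associated protein, had 7.89 against 278 CPM (0.0284, 0.0110 to 0.0612).

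**Figure D5:**
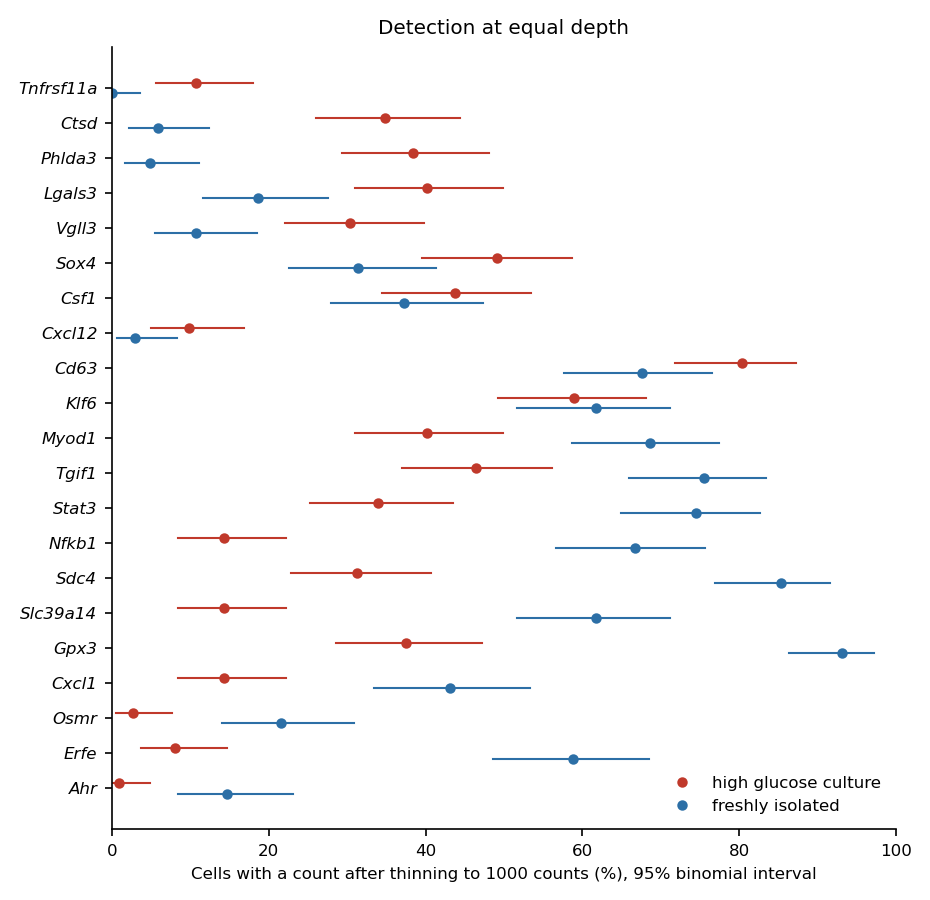
Share of cells with at least 1 count after thinning every cell to 1000 counts, in high glucose cells (red, upper) and freshly isolated cells (blue, lower), with exact binomial 95% intervals. Gpx3, Sdc4, Nfkb1, Slc39a14, Erfe and Stat3 differ most in favour of freshly isolated cells, Phlda3, Ctsd and Lgals3 in favour of high glucose cells, and the intervals of Klf6 and Csf1 overlap.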

How the data were processed

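The authors deposited raw counts for every gene in every well, and these were checked to be whole numbers. UMI collapsing, aligner, build, annotation and strand setting were not given in the sources used here. No role is stated for edgeR, which the submitters' processing notes name. Of 18197 gene identifiers, 18131 (99.6%) received a symbol from GENCODE M21, while the others (0.222% of counts) were kept in library totals. Doublets were not called. Counts were summed per condition (Python 3.11.15, scipy 1.17.1), and ratios carry exact conditional (Clopper-Pearson) 95% intervals. TMM factors came from edgeR 4.0.16. Called means a ratio of at least 2 or at most 0.5. Per group the text drew on the 2 higher and 2 lower genes with the firmest interval and that with the most counts, and over all genes on the 10 higher, 10 lower and 10 lowest per spike-in count. The members and lists were chosen with earlier results of these data known. Exact binomial intervals were computed for thinned shares and not for unthinned shares. The interval step was tested on simulated data. Sequences are from RefSeq, and 10 motifs were searched. Near-identical copies and overlapping genes could not be separated.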

Additional observations from a re-analysis of the deposited data

How the results depend on the processing

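No paired analysis was possible because each condition was a single pool and the wells carry no replicate numbers. Of the 103 genes drawn on, none whose ratio was past 2-fold changed side of 1 under any alternative run. Calls in CPM were lost for 5 genes with TMM factors (shift of all log2 ratios -0.17), 7 with median-of-ratios factors (-0.20), 5 with equal weight per cell and 7 after thinning, Bhlhe41, Csf1 and Sfxn1 in all 4 of these, Cd34 and Cxcl12 in all but thinning, Bsg and Sox4 with median-of-ratios factors, and Fgfr4, Il17ra, Lgals1 and Sox4 after thinning. Lowering the minimum to 20 CPM gave 1577 higher and 847 lower genes, with 52 receptors, 70 secreted proteins and 33 transporters lower and 15 transcription factors and 27 transporters higher. Receptors higher numbered 2 with median-of-ratios factors and 11 after thinning, and transporters higher numbered 17 after thinning. Leaving out each plate row in turn gave 690 to 719 genes higher and 465 to 495 lower in CPM, and 3059 to 3149 higher and 103 to 113 lower per spike-in count. The ranges in CPM, higher and lower, were 4 to 6 and 29 to 33 receptors, 9 to 12 and 39 to 43 secreted proteins, 5 to 9 and 48 to 52 transcription factors, and 7 to 13 and 16 to 22 transporters. Per spike-in count they were 27 to 33 and 10 to 13, 29 to 30 and 22 to 24, 59 to 65 and 7 to 11, and 52 to 57 and 5 to 7, in the same order. Besides Cxcl2, only Msc among these genes moved by over its interval without a single row (log2 -3.58 against -2.74 in CPM). Other settings moved more CPM ratios beyond their intervals. After thinning 29 moved and 65 did not, and genes with no thinned count in a pool were left out. With equal weight per cell 12 moved, with median-of-ratios factors 8 and with TMM factors 2. Of 60 genes whose thinned shares lay at least 10 points apart, the order was kept in 60 at 500 counts and changed in 1 at 2000. The causes were not tested. Depth limits low genes, since 1 count is worth 1.13 CPM in the high glucose pool and 3.52 CPM in the freshly isolated pool.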

Other observations

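Mitochondrial transcripts took a median of 1.35% of gene counts in high glucose cells and 3.24% in freshly isolated cells. Processed pseudogenes were more often higher than protein-coding genes, with 222 of 662 (33.5%) at least 2-fold higher in CPM in high glucose cells, against 453 of 3077 (14.7%) protein-coding genes, and 16 (2.42%) were lower, against 443 (14.4%). Ftl1-ps1, named as a ferritin light chain pseudogene, is annotated as protein-coding and was counted among those genes. It had 633 CPM in high glucose cells and 127 CPM in freshly isolated cells, and its reads cannot be told apart from those of its parent gene here. The 10 genes with the most counts held 7.04% of the high glucose pool and 10.2% of the freshly isolated pool.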
